A study of Homo sapiens with 6 samples.

Results

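The enzymes that make and refill the deoxynucleotide pool were followed in OE33 cells, a long-established line from a human adenocarcinoma of the oesophagus, with and without APX2009. The 9 genes were taken by symbol: RRM1, RRM2, RRM2B, TYMS, TK1, DTYMK, DCK, DCTPP1 and CTPS1. They are 9 of the 58051 gene rows of the count table and were proposed with earlier results of these data in view, although the rule uses no measured value. APX2009 is a small molecule used to block the redox function of the DNA repair protein APE1. The treated group had 3 libraries from OE33 cells given 15 µM APX2009 for 24 h, and the control group had 3 libraries from OE33 cells left untreated, with no vehicle named. The series describes the 3 libraries of each group as independent biological replicates. All 6 come from a single line, RNA was selected by its poly(A) tail, and each library is a bulk sample of cells.

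DNA synthesis needs a balanced supply of the 4 deoxynucleoside triphosphates. Ribonucleotide reductase makes deoxynucleotides from ribonucleoside diphosphates, with a large catalytic subunit, RRM1, and a small radical-bearing subunit, which is either RRM2 or RRM2B. Thymidylate is made de novo by thymidylate synthase (TYMS) or salvaged from thymidine by thymidine kinase (TK1), and thymidylate kinase (DTYMK) passes both products on. RRM2, TYMS and TK1 are known as enzymes of proliferating cells, whereas RRM2B, a p53-induced subunit, and the deoxycytidine kinase DCK are also used outside S phase.

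All 9 genes were measured well enough to be tested, with between 86 and 1717 reads per gene and library. After APX2009, RRM2 and TK1 fell most, by 2.49-fold and 2.40-fold. TYMS fell by 1.72-fold, DTYMK by 1.39-fold and DCTPP1 by 1.29-fold. RRM1, RRM2B, DCK and CTPS1 did not pass the test. A gene is said to have fallen or risen where its adjusted p was under 0.05 in edgeR's quasi-likelihood test with Benjamini-Hochberg adjustment over all 14773 genes tested.

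By that test 5 of the 9 fell, beside 17.4% of all genes tested. None of the 9 rose by that test, beside 17.2% of all genes. None rose by DESeq2 or limma voom either, which called 2352 and 2492 of all genes higher. At an unadjusted p under 0.05 in edgeR, 6 of the 9 were lower and none was higher. The shares of all genes were not computed there, so these counts have no background beside them. At least a 2-fold fall with the same adjusted p was met by 2 of the 9 and by 1.78% of all genes. The median log2 change over the 9 genes was -0.37, and over all tested genes it was 0.02, with the middle 50% between -0.23 and 0.27. In 7 of the 9 every treated library lay under every untreated one, which held for 25.0% of all genes.

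**Figure D1:**
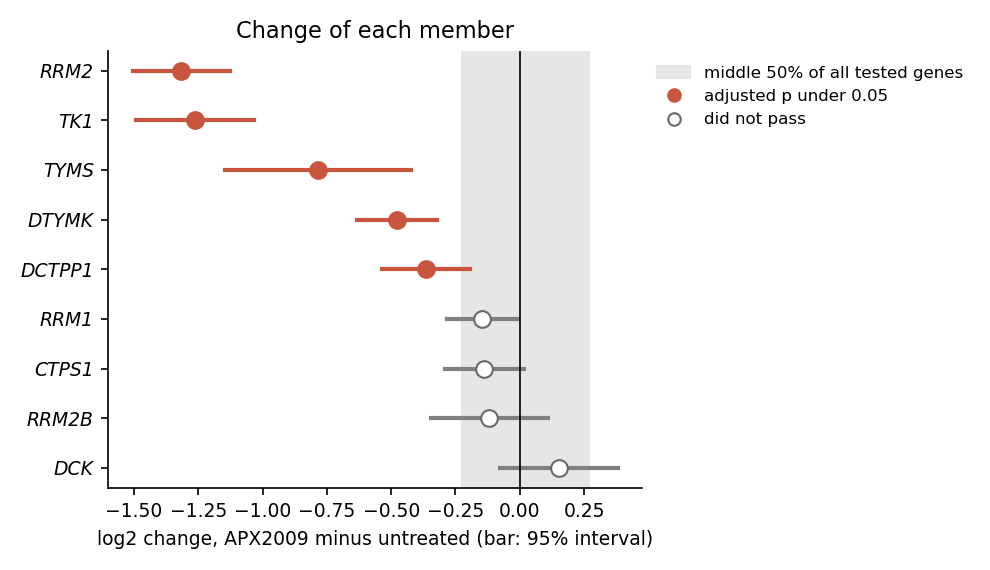
Log2 change of each enzyme gene, APX2009 minus untreated, with the bar giving the 95% interval of the edgeR estimate and filled points an adjusted p under 0.05. RRM2 at -1.32 and TK1 at -1.26 are the lowest estimates, with intervals that overlap that of TYMS, and the intervals of RRM2B, DCK and CTPS1 cross 0.

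Some features of the whole data set bear on these values. The libraries held 21158750 to 26111656 gene counts. APX2009 replicate 1 stood apart in genes detected, with a count in 25015 genes against 21845 to 22446 in the other 5 libraries. Counts of each pair of libraries in a group were also compared by chi-square per degree of freedom over genes, higher being less alike. Untreated replicate 1 gave 18.8 and 10.8 with replicates 2 and 3, which gave 3.06 with each other. APX2009 replicate 1 gave 26.8 and 30 with replicates 2 and 3, which gave 4.93. The 6 epithelial marker genes were all detected, and their summed level was 25604.9 to 26327.8 counts per 1e6 mapped gene reads (CPM) in untreated and 14172.4 to 17739.5 CPM in treated libraries. Of markers for other cell types, 1 of 6 fibroblast, 2 of 6 leukocyte and 0 of 5 endothelial genes passed the filter on low counts. Their summed levels in any library reached at most 19.2, 5.29 and 2.17 CPM, and CD3E was at 0. Synthetic ERCC RNA was 0.480% to 0.564% of all counts in untreated libraries, and 0.315%, 0.752% and 0.734% in APX2009 replicates 1, 2 and 3. With libraries scaled to that RNA, none of the 9 genes passed in edgeR, beside 0.0474% of all genes lower. At an unadjusted p under 0.05, 2 of the 9 were lower on that scale, beside 1.24% of all genes. The estimates were then -1.23 for RRM2 and -1.26 for TK1, with SEs of 0.496 to 0.541 over the 9 genes.

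Of the ribonucleotide reductase subunits, the S-phase small subunit fell and the other subunits did not pass the test. RRM2 (ENSG00000171848; GRCh38 chr2:10120698-10131419, + strand) was at 65.4, 62.3 and 62.2 CPM in untreated replicates 1 to 3. In APX2009 replicates 1 to 3 it was at 26.5, 27.6 and 22.1 CPM. All 3 treated libraries were below all 3 untreated ones by a wide margin, with APX2009 replicate 3 the lowest. The mean went from 63.3 ± 1.80 to 25.4 ± 2.89 CPM (SD, n = 3 each), a log2 change of -1.32 ± 0.09 (SE) with a 95% interval of -1.50 to -1.13 and an edgeR adjusted p of 3.33e-06. RRM2 stood at place 96 among the 14773 genes ordered by their fall. A gene annotated as protein-coding on the same strand, AC007240.1, covers 20.2% of its exon bases and has no row in the table used here, so any reads from it cannot be told apart. The 3 RRM2 pseudogenes RRM2P2, RRM2P3 and RRM2P4 held 0 counts.

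RRM1 (ENSG00000167325; chr11:4094707-4138876, + strand), which carries the active site and the allosteric sites, was at 56.3, 56.2 and 54.5 CPM in untreated libraries. With APX2009 it was at 48.0, 52.6 and 50.3 CPM. The treated values lay just below the untreated ones without overlap, and replicate 1 was the lowest. The log2 change was -0.15 ± 0.06 (95% interval -0.28 to -0.01), with an unadjusted p of 0.0381 and an edgeR adjusted p of 0.0909. It did not pass, and the interval leaves room for a fall of up to 1.22-fold.

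The promoters of the 3 genes with the contrast at issue, RRM2 and TK1 as the most lowered and RRM1 as the partner of RRM2, are shown as the 200 bases before the start site. They come from RefSeq (GRCh38.p14) and are written 5′ to 3′ on the gene's strand. Capitals mark CCAAT boxes in either orientation (CCAAT or ATTGG), which bind the factor NF-Y, and in RRM1 also the letters of a cell-cycle homology region (TTTGAA or TTCAAA). The RRM2 stretch is chr2:10122539-10122738 (+ strand), that of TK1 chr17:78187053-78187252 (- strand) and that of RRM1 chr11:4094485-4094684 (+ strand).
RRM2: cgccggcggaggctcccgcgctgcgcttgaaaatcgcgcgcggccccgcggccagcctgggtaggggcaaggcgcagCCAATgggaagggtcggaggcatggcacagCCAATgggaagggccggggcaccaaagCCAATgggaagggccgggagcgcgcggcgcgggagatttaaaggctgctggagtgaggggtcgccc
TK1: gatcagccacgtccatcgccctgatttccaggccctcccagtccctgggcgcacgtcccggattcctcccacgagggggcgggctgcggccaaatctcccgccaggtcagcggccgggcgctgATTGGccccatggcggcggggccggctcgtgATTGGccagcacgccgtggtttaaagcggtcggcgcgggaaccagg
RRM1: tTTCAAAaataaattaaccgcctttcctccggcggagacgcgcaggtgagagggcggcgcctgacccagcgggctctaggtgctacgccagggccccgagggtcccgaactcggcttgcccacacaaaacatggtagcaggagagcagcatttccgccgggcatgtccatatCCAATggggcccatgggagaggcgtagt

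Positions are those of a match's first base, counted back from the start site. RRM2 shows 3 CCAAT boxes, at -123, -93 and -66. TK1 shows 2 boxes, at -77 and -46, both inverted. RRM1 shows 1 box, at -28, and its cell-cycle homology letters begin at -199. Of the 35116 promoter windows of 300 bases (250 before to 50 after the start) in the same source, 34.6% hold at least 1 CCAAT box, 10.8% at least 2 and 3.26% at least 3, and the homology letters are in 15.2%. Windows were found for 8 of the 9 genes, 11 in all, with RRM2B the gene without an entry. A further window of RRM2 holds 1 box and a further window of TK1 none. DTYMK holds 2 boxes, at -92 and -24. Letters of an E2F site (TTTGGCGC, TTTCCCGC, TTTCGCGC or TTTGCCGC, either strand, in 3.31% of all windows) were found in TYMS, at -39, and in DCK, at 21 after the start. Neither the window of TYMS, which fell, nor that of DCK, which did not pass, holds a CCAAT box. The windows of CTPS1 and DCTPP1 hold no match of any of these motifs. No match of one motif overlapped a match of another, and a match describes the sequence only.

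**Figure D2:**
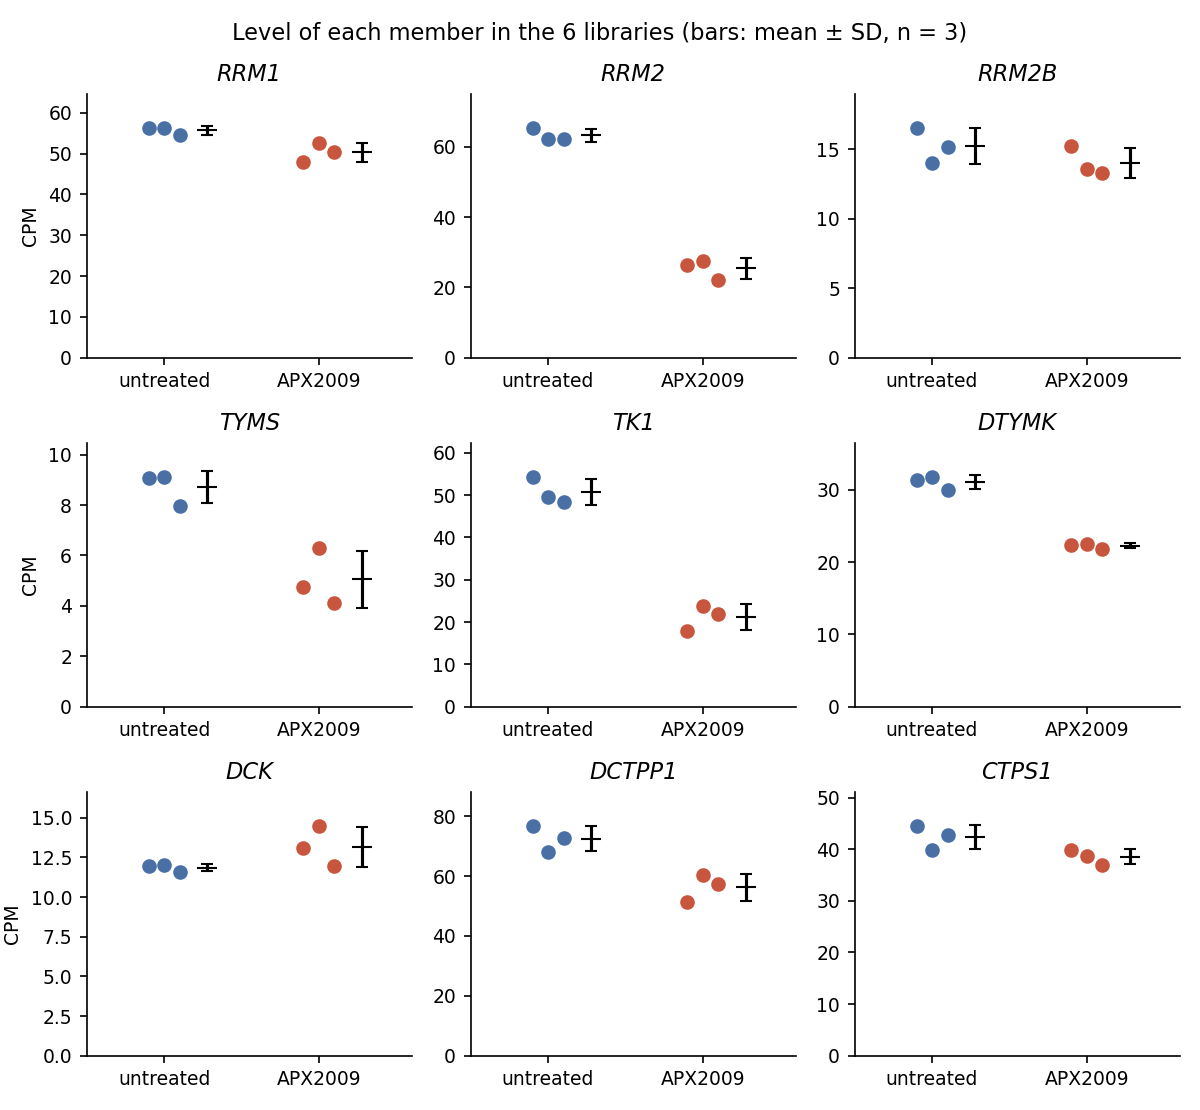
CPM of each enzyme gene in the 6 libraries, by group, with the bar at the group mean and its SD (n = 3). Untreated and treated libraries are far apart for RRM2 and TK1, and interleaved for RRM2B and DCK.

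RRM2B (ENSG00000048392; chr8:102204502-102239118, - strand), the alternative small subunit, was at 16.5, 14.0 and 15.2 CPM in untreated and 15.2, 13.6 and 13.3 CPM in treated libraries. The groups overlapped, with APX2009 replicate 1 inside the untreated range. The log2 change was -0.12 ± 0.10 (95% interval -0.35 to 0.11), with an edgeR adjusted p of 0.400, so a fall of 1.27-fold or a rise of 1.08-fold would both lie within the interval. The 5 genes whose profile over the 6 libraries lay closest to that of RRM2B, of 9818 genes averaging 3 or more log2 CPM, were TOPBP1, CPSF1, ARSA, EED and ZNF251, at root-mean-square log2 distances of 0.0345 to 0.0468. For RRM2 they were DUSP6, SEMA3A, IFIT1, DLGAP5 and MUC1, at 0.0280 to 0.0757.

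Because the 3 subunit genes differ in length, their balance was computed per kilobase of merged exon, within each library. RRM2 per RRM1 was 0.912, 0.870 and 0.896 in untreated and 0.432, 0.412 and 0.345 in treated libraries. Every treated library lay far below every untreated one. The mean ratio went from 0.893 ± 0.0212 to 0.397 ± 0.0456 (SD, n = 3 each), 2.26-fold lower. RRM2B per RRM1 was 0.221, 0.188 and 0.210 against 0.239, 0.194 and 0.199, with means of 0.206 ± 0.0170 and 0.211 ± 0.0246. Those groups overlapped.

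As a share of both small subunits, RRM2B transcripts were 19.5%, 17.7% and 19.0% in untreated and 35.6%, 32.0% and 36.5% in treated libraries. The mean share went from 18.7 ± 0.909% to 34.7 ± 2.37%, while RRM2B itself did not pass the test. RRM2B per RRM2 went from 0.231 ± 0.0137 to 0.533 ± 0.0547, 2.30-fold higher. In a two-sided exact permutation test, 3 against 3 libraries cannot go below p = 0.1, which was the p of RRM2 per RRM1, of RRM2B per RRM2 and of the RRM2B share, with a Benjamini-Hochberg adjusted value of 0.125 over the 5 ratios tested. RRM2B per RRM1 had an exact permutation p of 0.9 (adjusted 0.9). With the longest transcript as gene length, the share went from 15.2% to 29.2%.

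**Figure D3:**
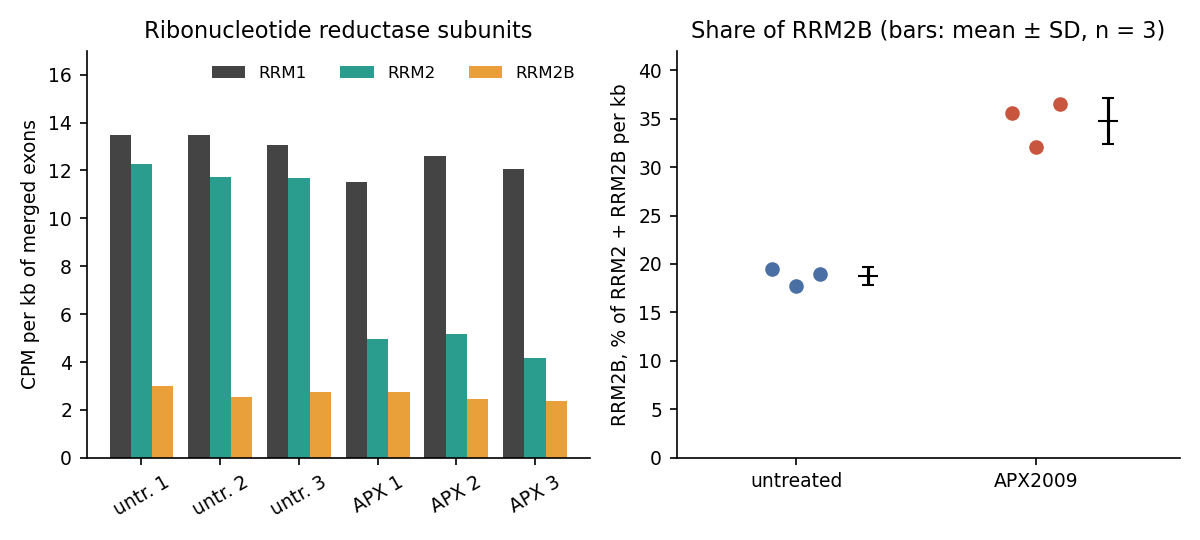
Left, CPM per kilobase of merged exons of RRM1, RRM2 and RRM2B in each library (bars, untr. for untreated and APX for APX2009); right, RRM2B as a percent of RRM2 plus RRM2B, each point a library, with the mean and SD (n = 3) beside. The RRM2 bars nearly reach those of RRM1 in untreated libraries and not in treated ones, and the RRM2B share averages 18.7% and 34.7% without overlap.

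Transcripts of the enzymes of both routes to thymidylate, TK1 and TYMS, were lower. TK1 (ENSG00000167900; chr17:78174075-78187233, - strand), the cytosolic thymidine salvage enzyme, was at 54.3, 49.5 and 48.4 CPM in untreated libraries. With APX2009 it was at 17.9, 23.8 and 21.8 CPM. The groups were far apart, and replicate 1 was the lowest treated library. The mean went from 50.7 ± 3.12 to 21.2 ± 3.01 CPM (SD, n = 3 each), a log2 change of -1.26 ± 0.10 (95% interval -1.49 to -1.03) with an edgeR adjusted p of 1.40e-05. TK1 took place 112 among all falls.

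TYMS (ENSG00000176890; chr18:657604-673578, + strand), which methylates dUMP and is the target of fluorouracil, was the least counted member, with 86 to 227 reads per library. It was at 9.08, 9.12 and 7.96 CPM in untreated and 4.76, 6.31 and 4.12 CPM in treated libraries. The groups did not overlap, and APX2009 replicate 2 was the highest treated library. The log2 change was -0.78 ± 0.16 (95% interval -1.15 to -0.42; edgeR adjusted p 0.00432). The antisense gene ENOSF1 overlaps 39.1% of TYMS exon bases, and without a known strand setting reads from the overlap cannot be told apart. ENOSF1 itself had a log2 change of 0.06 ± 0.11 (adjusted p 0.688).

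DTYMK (ENSG00000168393; chr2:241675742-241686991, - strand), the kinase that both thymidylate routes share, was at 31.3, 31.8 and 29.9 CPM in untreated and 22.4, 22.5 and 21.8 CPM in treated libraries. The replicates were tight and the groups well apart. The log2 change was -0.48 ± 0.07 (95% interval -0.63 to -0.32; edgeR adjusted p 0.000551).

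DCK (ENSG00000156136; chr4:70992538-71030914, + strand), which phosphorylates deoxycytidine and activates gemcitabine and cytarabine, was the only one of the 9 genes with a positive estimate. It was at 11.9, 12.0 and 11.6 CPM in untreated and 13.1, 14.5 and 12.0 CPM in treated libraries. APX2009 replicate 3 fell within the untreated range. The log2 change was 0.15 ± 0.10 (95% interval -0.08 to 0.38; edgeR adjusted p 0.282) and did not pass. The neighbouring gene MOB1B overlaps 6.17% of DCK exon bases on the same strand.

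Set against each other per kilobase, TK1 stood at 7.88, 7.13 and 7.23 times the level of DCK in untreated libraries and at 2.37, 2.85 and 3.16 times in treated ones. The mean ratio went from 7.41 ± 0.411 to 2.79 ± 0.394 (SD, n = 3 each), 2.67-fold lower, with an exact permutation p of 0.1, the smallest these group sizes allow (adjusted 0.125). Every treated library lay below every untreated one.

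DCTPP1 (ENSG00000179958; chr16:30423619-30430075, - strand), a pyrophosphatase that removes surplus and modified dCTP, was at 76.8, 68.1 and 72.8 CPM in untreated and 51.4, 60.3 and 57.3 CPM in treated libraries. The groups did not overlap. The log2 change was -0.37 ± 0.08 (95% interval -0.54 to -0.20; edgeR adjusted p 0.00451). The antisense gene ZNF771, with a log2 change of 0.09 ± 0.14 (adjusted p 0.641), covers 42.1% of DCTPP1 exon bases. As for TYMS, reads from the overlap cannot be told apart without a known strand setting.

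CTPS1 (ENSG00000171793; chr1:40979335-41012565, + strand), which makes CTP from UTP, was at 44.5, 40.0 and 42.8 CPM in untreated and 40.0, 38.7 and 37.0 CPM in treated libraries. The lowest untreated and the highest treated library were level at the precision printed. The log2 change of -0.14 ± 0.07 (95% interval -0.29 to 0.02; edgeR adjusted p 0.149) did not pass.

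The genes were also ordered by level in each group. Per kilobase of merged exon, untreated cells had DCTPP1 at the top (45.9 ± 2.74 CPM per kb), then TK1 (27.3 ± 1.67), RRM1 (13.3 ± 0.243), DTYMK (12.7 ± 0.390) and RRM2 (11.9 ± 0.338). Below these came CTPS1 (3.69 ± 0.200), DCK (3.68 ± 0.0703), TYMS (3.53 ± 0.265) and RRM2B (2.75 ± 0.228). RRM2 overlapped DTYMK in its range over libraries, DCK overlapped CTPS1, and TYMS overlapped DCK.

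After APX2009 the order of levels was DCTPP1 (35.6 ± 2.86 CPM per kb), RRM1 (12.0 ± 0.542), TK1 (11.4 ± 1.62), DTYMK (9.08 ± 0.149), RRM2 (4.77 ± 0.543), DCK (4.08 ± 0.391), CTPS1 (3.35 ± 0.128), RRM2B (2.53 ± 0.192) and TYMS (2.05 ± 0.456). TK1 overlapped RRM1, DCK overlapped RRM2, and TYMS overlapped RRM2B. With the longest transcript as length, several places differed. DTYMK then stood above RRM1 in both groups (25.2 against 17.6 CPM per kb untreated, 18.1 against 15.9 treated) and above TK1 in treated libraries (12.6). CTPS1 kept its place in untreated libraries at 7.97 CPM per kb, and in treated ones it stood above RRM2 (7.24 against 6.92). TYMS stood above DCK in untreated libraries (5.25 against 4.37) and above RRM2B in treated ones (3.05 against 2.84).

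Most of the enzymes around the thymidylate step fell, as TYMS did. Of 6 genes of the thymidylate cycle and dUTP removal, 4 fell, and the list's median log2 change was -0.39 beside 0.02 over all tested genes. The counts of this and each later list stand beside 17.4% of all tested genes lower and 17.2% higher. The serine hydroxymethyltransferases SHMT1 and SHMT2, which supply the one-carbon unit, fell by 0.55 and 0.51 on the log2 scale. DCTD, which makes dUMP from dCMP, fell by 0.21. DUT, the dUTPase, had a log2 change of -0.26 with an adjusted p of 0.0869.

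Other salvage kinases and the nucleotidases that oppose them were mixed. Of 6 tested, 2 fell and 1 rose, with a median log2 change of -0.21. SAMHD1, which degrades deoxynucleoside triphosphates, fell from 289 ± 2.65 to 213 ± 18.7 CPM (log2 change -0.44 ± 0.07, edgeR adjusted p 0.00128). The mitochondrial kinase TK2 fell by 0.24 on the log2 scale and NT5C2, a cytosolic nucleotidase, rose by 0.26. The number that fell was 1 without any one untreated library. The number that rose was 0 without untreated replicate 1, untreated replicate 3 or APX2009 replicate 3, and 2 without APX2009 replicate 1.

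Among 5 enzymes that clean the nucleotide pool, 3 fell and 1 rose. DNPH1, which hydrolyses the modified nucleotide hydroxymethyl-dUMP, went from 49.4 ± 0.967 to 29.2 ± 2.49 CPM (log2 change -0.75 ± 0.08, edgeR adjusted p 5.16e-05). ITPA, which removes inosine triphosphates, fell by 0.36 on the log2 scale. NUDT1, which hydrolyses oxidised purine nucleotides, rose by 0.35, and no member was called higher without untreated replicate 1 or untreated replicate 3.

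Of 14 mono- and diphosphate kinases, which act on ribo- and deoxynucleotides alike, 2 fell, beside 17.4% of all genes tested. The median log2 change of the list was -0.07. CMPK2 fell by 0.69 and NME4 by 0.20 on the log2 scale. The number that fell was 1 without any one untreated library or without APX2009 replicate 2. Without APX2009 replicate 3, 1 of the 14 was called higher.

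Part of the genes for ribonucleotide precursors fell. Of 7 genes of pyrimidine synthesis and uridine salvage, 3 fell (median log2 change -0.25). CAD, which starts de novo synthesis, was the only de novo gene among those 3 and fell by 0.53. The others were salvage kinases, among them UCKL1, which fell by 0.43. CTPS2, the paralogue of CTPS1, had a log2 change of -0.12 with an edgeR adjusted p of 0.284. Of 16 genes of purine synthesis and salvage, 9 fell (median log2 change -0.27), with PRPS1, ADSS2, IMPDH2 and APRT at -0.50, -0.42, -0.40 and -0.35. That count was 4 without untreated replicate 3. Of 8 genes of nucleoside breakdown and transport, 5 fell and 1 rose (median log2 change -0.26). TYMP, which breaks down thymidine, fell by 0.79 on the log2 scale, DPYD by 0.71 and UPP1 by 0.54, and the transporter SLC29A3 rose by 0.39. Without untreated replicate 1 the counts for breakdown and transport were 3 lower and 0 higher. The count higher was 2 without APX2009 replicate 1 and 0 without APX2009 replicate 3.

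Genes of the thioredoxin and glutaredoxin systems, some of which return electrons to ribonucleotide reductase, mostly went the other way. Of 9 such genes, 5 rose and 2 fell, with a median log2 change of 0.36. The 9 also include mitochondrial members and glutaredoxins of iron-sulfur cluster handling. The count and median are therefore not those of donors to the reductase alone. TXNRD1 was at 663, 742 and 760 CPM in untreated and 2689, 2370 and 2922 CPM in treated libraries, a log2 change of 1.88 ± 0.09 (edgeR adjusted p 5.87e-07). GLRX rose by 1.51, TXN by 1.29 and GSR by 1.11 on the log2 scale. The 2 that fell were the mitochondrial glutaredoxins GLRX2 and GLRX5, by 0.53 and 0.44. Donor transcripts of the cytosolic systems were thus higher in the libraries in which the RRM2 transcript was lower.

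**Figure D4:**
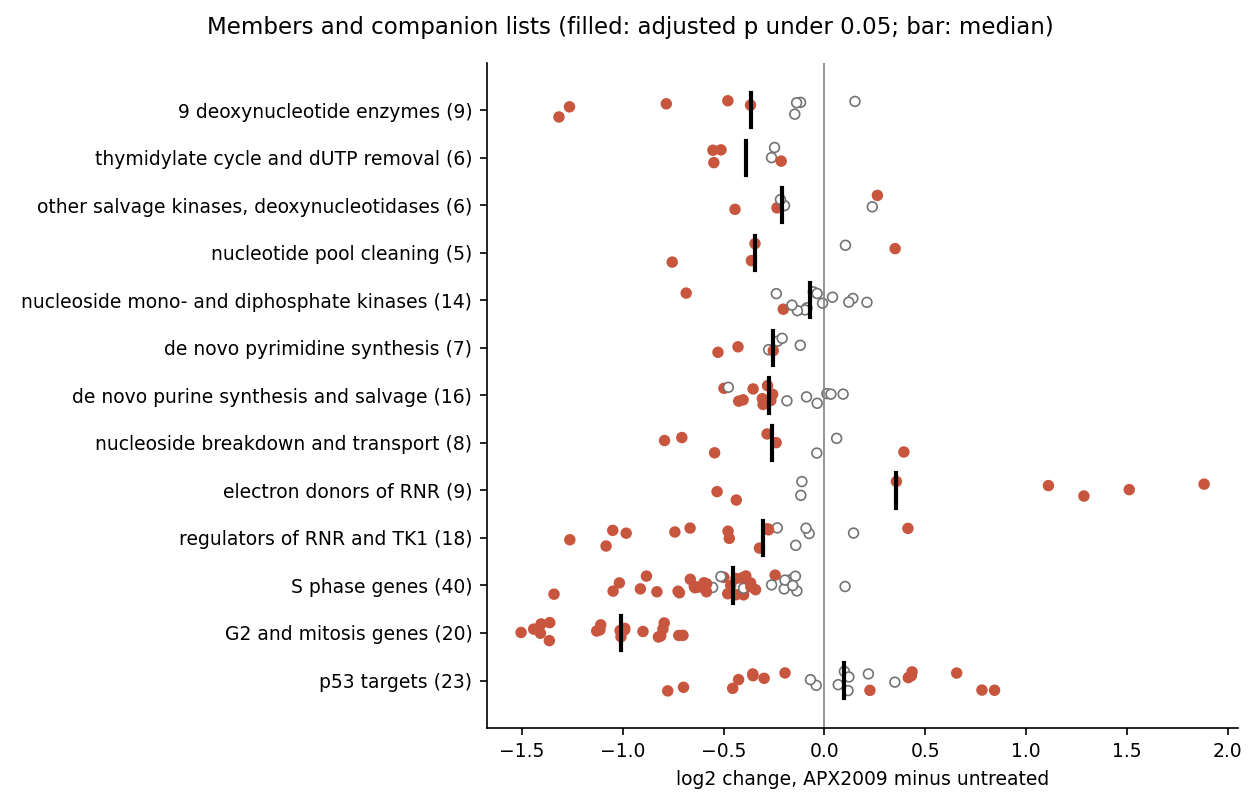
Log2 change (APX2009 minus untreated) of every tested gene in the 9 enzyme genes and in 12 related gene lists, with filled points for an adjusted p under 0.05 and a bar at each median. G2 and mitosis genes lie lowest as a list (median -1.01), and the electron donors reach 1.88.

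Regulators of the reductase and of TK1 were mostly lower: 12 of 18 fell and 1 rose, with a median log2 change of -0.30. Of the 6 E2F factors in the list, which act on S-phase promoters, E2F1, E2F2, E2F7 and E2F8 fell, with log2 changes of -0.74, -1.26, -0.29 and -1.08. E2F3 and E2F4 did not pass, at 0.14 (edgeR adjusted p 0.149) and -0.08 (adjusted p 0.537). MYBL2, a factor of proliferating cells, fell by 0.98. CCNF, the cyclin F that targets RRM2 protein for degradation, fell by 1.05. AHCYL1 (IRBIT), an inhibitor of the reductase, rose by 0.41 ± 0.06 (edgeR adjusted p 0.000464).

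Most S-phase genes fell, as did RRM2, TK1, TYMS, DTYMK and DCTPP1 among the enzyme genes. Of 40 such genes, 29 fell, and their summed level was 1673.6 to 1798.7 CPM in untreated and 1007.0 to 1213.7 CPM in treated libraries. Their median log2 change was -0.45. Of the 40, 39 had a higher log2 change than RRM2, and the same number a higher one than TK1; MCM7, a helicase subunit, was the exception at -1.34. RRM1 lay at the other end, with 37 of the 40 at a lower log2 change. All 20 G2 and mitosis genes fell, with a median log2 change of -1.01, among them TPX2 at -1.36 and TOP2A at -1.11. In bulk RNA, fewer cells in S phase and less RNA of these genes per cell cannot be told apart, and the part of cell-cycle composition in the fall of RRM2, TK1, TYMS and DTYMK was not tested.

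RRM2B belongs to the p53 targets, and the other genes of that list were divided. Of 23 tested, 7 rose and 8 fell, beside 17.2% and 17.4% of all genes tested, with a median log2 change of 0.10. GDF15 rose by 0.78, BAX by 0.43 and CDKN1A by 0.42 on the log2 scale. DDB2 and FDXR fell by 0.78 and 0.70, and MDM2 had a log2 change of -0.04 (edgeR adjusted p 0.705). Without untreated replicates 1, 2 or 3 the number lower was 5, 3 or 5.

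Over 15 alternatives the log2 change of RRM2 lay between -1.37 and -1.23, that of TK1 between -1.35 and -1.15 and that of TYMS between -0.96 and -0.66. RRM1 lay between -0.17 and -0.10, and DCK between 0.09 and 0.21. The estimates of the genes that did not pass moved more for their size: RRM2B lay between -0.18 and -0.01, and CTPS1 between -0.17 and -0.05.

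**Figure D5:**
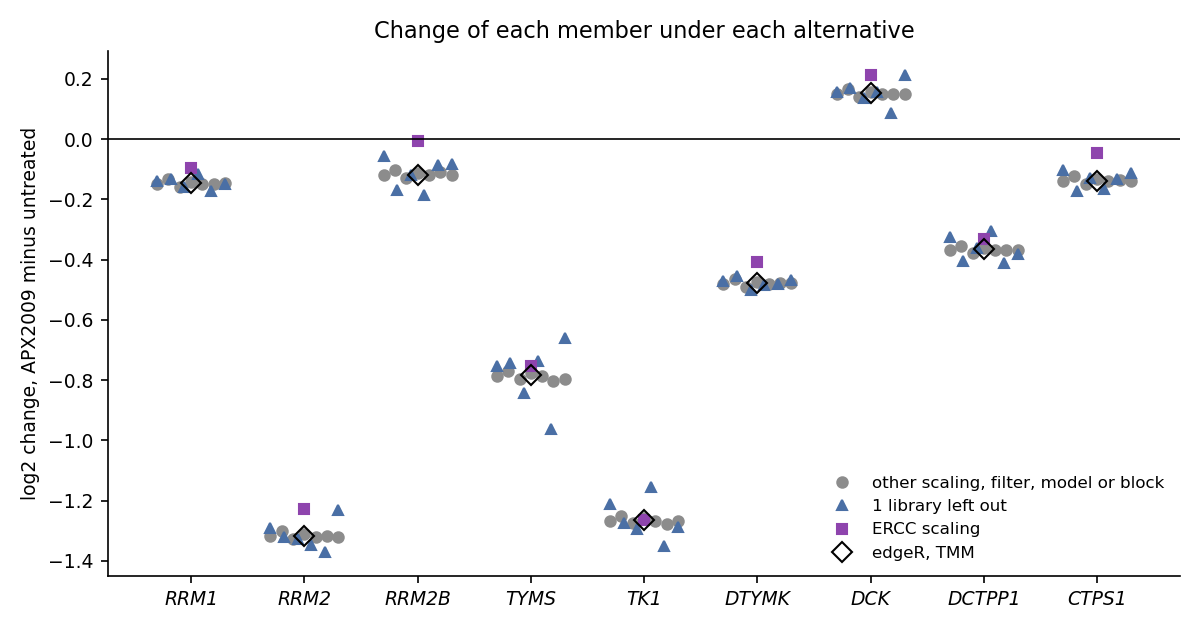
Log2 change (APX2009 minus untreated) of each enzyme gene by edgeR with TMM scaling (diamond), with 1 library left out (triangles), with ERCC scaling (square) and under other scalings, filters, models or the replicate block (circles). No gene crosses 0 under any of these, and RRM2 and TK1 stay lower than the other 7 genes.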

How the data were processed

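RNA sequencing measured 6 OE33 libraries, grouped by sample title. The deposited table holds raw counts by Ensembl gene, not normalized by the authors. Reads were processed with STAR 2.5.2b, Trimmomatic 0.36, Subread 1.5.2 and featureCounts against GRCh38, per the submitters' processing notes. Annotation release and strand setting: not given in the sources used here. Symbols, positions and exon lengths came from GENCODE 29, matching 57447 of 58051 rows; the 92 ERCC rows entered neither library sizes nor tests.

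Low counts were removed with filterByExpr, and genes were scaled by TMM and tested with edgeR 4.0.16 (R 4.3.3) on treatment alone. SEs came from the F statistic; CPM used the TMM-adjusted library size. Ratios were compared by exact permutation (scipy 1.17.1). The gene-wise fit was checked on simulated data. Companion genes named are up to 4 per list with the smallest p, plus genes chosen for their role in the pathway after their values were seen (DUT, CTPS2, GLRX2, GLRX5, E2F1, E2F2, E2F3, E2F4, E2F7, CDKN1A, MDM2). A few companion genes are not reported here. The members and all lists were chosen with earlier results of these data known. Alternatives were RLE, total counts, ERCC scaling, no filter, 1 CPM in 3 libraries, DESeq2 1.42.0, limma voom 3.58.1, a replicate block, an adjusted p under 0.01 and leaving out each library.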

Additional observations from a re-analysis of the deposited data

How the results depend on the processing

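RRM2, TK1, TYMS, DTYMK and DCTPP1 were called lower in 14 of 15 alternatives. The exception was scaling to the ERCC RNA, with 0 of the 9 genes lower, 7 of all genes lower and 129 higher; over the 15 alternatives the adjusted p of RRM2 ran from 2.48e-55 to 0.636 and that of TK1 from 8.44e-46 to 0.586. ERCC scaling moved the median of all genes from 0.02 to 0.08. No member changed sign. At an adjusted p under 0.01, 1587 genes were lower and 1470 higher, with 5 members lower. With 1 library left out, the log2 change ran from -1.37 to -1.23 for RRM2, -1.35 to -1.15 for TK1, -0.96 to -0.66 for TYMS, -0.50 to -0.45 for DTYMK and -0.41 to -0.30 for DCTPP1. The log2 difference of RRM2B per RRM1 was 0.027 and ran from -0.067 to 0.082; it was -0.039 without untreated replicate 2 and -0.067 without APX2009 replicate 1, and the cause was not tested.

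With the replicate number as a block, 5 members were lower, 2744 of all genes lower and 2757 higher. Same-numbered libraries had correlations of their deviations of 0.157, 0.0955 and 0.0417. Those of differently numbered libraries ran from -0.154 to 0.132 and were mostly negative. These values do not settle whether the numbers mark pairs. The labels state no pairing, so the main test took none. Of 360 counts of companion lists under the alternatives, 50 moved by more than 1.5 times. TYMS had the fewest reads of the 9 genes.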
